A study of Mus musculus with 8 samples.

Results

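A set of 10 genes that carry glucose into the cell, break it down to lactate and release the lactate was followed across sorted CD8 T cells of the mouse spleen: Slc2a1, Slc2a3, Hk1, Hk2, Pfkp, Aldoa, Gapdh, Pkm, Ldha and Slc16a3. They were chosen by symbol, and all 10 were among the 15609 genes of the count table. RNA had been sequenced in 8 libraries of wild-type C57BL/6 cells, enriched on CD8 microbeads and sorted as naive (CD44-CD49d-, 1 library), true memory (CD44hiCD49d+, 1 library) or virtual memory (VM, CD44hiCD49d-). VM cells, which look like memory cells but arise without foreign antigen, had been divided into Ly6C+ Sca-1- (2 libraries), Ly6C+ Sca-1+ (2 libraries), Ly6C- Sca-1- (1 library) and Ly6C- Sca-1+ (1 library). The series asked how these VM subsets relate to the cytokines they depend on. The libraries of a replicated group are called A and B, after the absence or presence of a suffix on their column. No label says whether they came from separate animals, so p-values measure the spread between these libraries, which may be technical, and the tests take the 4 lone libraries to be as variable as the replicated ones. The labels give no age and no treatment.

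Glycolysis starts when glucose enters through a facilitative transporter, which in T cells is mostly GLUT1 (Slc2a1) or GLUT3 (Slc2a3). A hexokinase traps the sugar, phosphofructokinase commits it to the pathway, aldolase splits it, and the lower steps yield ATP and pyruvate. Lactate dehydrogenase turns pyruvate into lactate and regenerates the NAD+ that Gapdh needs, and the monocarboxylate transporter MCT4 (Slc16a3) exports lactate. Resting T cells run this pathway at a low rate, and activated T cells raise it, with HIF-1, MYC and mTOR signalling as known drivers.

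HIF-1 binds sites with the core ACGTG, and MYC and other E-box proteins bind CACGTG, which contains that core. RefSeq promoter windows on GRCm38.p6, running 250 bases before to 50 after a start, were listed for 9 of the 10 genes, and where several starts were listed the most upstream was read. On either strand, ACGTG occurred in 5 of the 9 windows (Slc2a1, Hk2, Gapdh, Ldha, Slc16a3), against 19.6% of all 32851 windows. CACGTG occurred in the Ldha window alone, against 7.15% of all windows. The 4 windows below are shown because Slc2a1, Hk2 and Ldha hold the core and differ in pattern across the libraries, while Pkm, which ran most like Ldha, holds none. Capitals mark ACGTG, or its complement CACGT, including the E-boxes CACGTG. They are the Slc2a1 window (chr4:119108495-119108794, plus strand), the Hk2 window (chr6:82774405-82774704, minus strand), the Ldha window (chr7:46845554-46845853, plus strand) and the Pkm window (chr9:59656326-59656625, plus strand, no match), each written 5′ to 3′ along its gene.
Slc2a1: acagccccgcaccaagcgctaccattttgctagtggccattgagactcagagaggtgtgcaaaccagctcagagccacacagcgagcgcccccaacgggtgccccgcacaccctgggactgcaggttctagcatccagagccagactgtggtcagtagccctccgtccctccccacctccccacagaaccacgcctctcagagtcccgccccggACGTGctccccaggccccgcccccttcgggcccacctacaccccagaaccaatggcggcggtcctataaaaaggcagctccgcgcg
Hk2: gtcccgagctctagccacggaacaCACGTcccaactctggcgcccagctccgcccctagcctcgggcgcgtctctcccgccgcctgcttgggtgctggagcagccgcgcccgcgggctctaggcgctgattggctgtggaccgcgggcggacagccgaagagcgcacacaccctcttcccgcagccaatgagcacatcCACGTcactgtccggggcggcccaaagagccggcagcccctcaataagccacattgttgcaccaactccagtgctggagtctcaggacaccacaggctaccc
Ldha: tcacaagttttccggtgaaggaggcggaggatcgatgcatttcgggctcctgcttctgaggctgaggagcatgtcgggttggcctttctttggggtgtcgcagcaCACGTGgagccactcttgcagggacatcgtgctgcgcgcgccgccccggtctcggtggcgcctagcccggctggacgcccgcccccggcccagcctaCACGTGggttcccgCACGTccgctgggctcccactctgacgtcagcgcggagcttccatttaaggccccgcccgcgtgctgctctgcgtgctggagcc
Pkm: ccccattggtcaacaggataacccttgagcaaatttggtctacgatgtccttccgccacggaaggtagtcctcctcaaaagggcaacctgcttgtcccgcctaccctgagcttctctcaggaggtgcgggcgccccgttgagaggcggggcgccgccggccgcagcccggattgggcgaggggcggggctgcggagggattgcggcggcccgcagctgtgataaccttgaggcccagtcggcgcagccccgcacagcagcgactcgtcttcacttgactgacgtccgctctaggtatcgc
The Ldha window held 3 separate sites, of which 2 were E-boxes, and the Hk2 window held 2 sites. A match describes these letters only, since binding was not measured here.

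Library totals lay between 49993407 and 63815914 counts. Values are CPM, counts scaled to a common library size after TMM normalization. Levels are compared between genes only on the TPM scale, which corrects for gene length, using the authors' deposited values of the 4 lone libraries (naive, both Ly6C- VM and true memory). There the lower pathway was the most abundant in TPM: Gapdh ranged from 312 to 823, Ldha from 402 to 720, Pkm from 335 to 591 and Aldoa from 348 to 455. Hk1 (74.0 to 87.6 TPM), Pfkp (42.5 to 96.1 TPM), Slc2a1 (30.4 to 39.0 TPM) and Slc2a3 (31.7 to 43.4 TPM) lay below them. Hk2 (0.986 to 6.30 TPM) and Slc16a3 (0.846 to 2.48 TPM) were the least abundant in each of these libraries. Summed over the 10 genes, TPM was 1579 in naive cells, 2324 in Ly6C- Sca-1- VM, 2831 in Ly6C- Sca-1+ VM and 2214 in true memory cells. In bulk RNA, fewer cells with a high level and a lower level in each cell cannot be told apart.

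**Figure D1:**
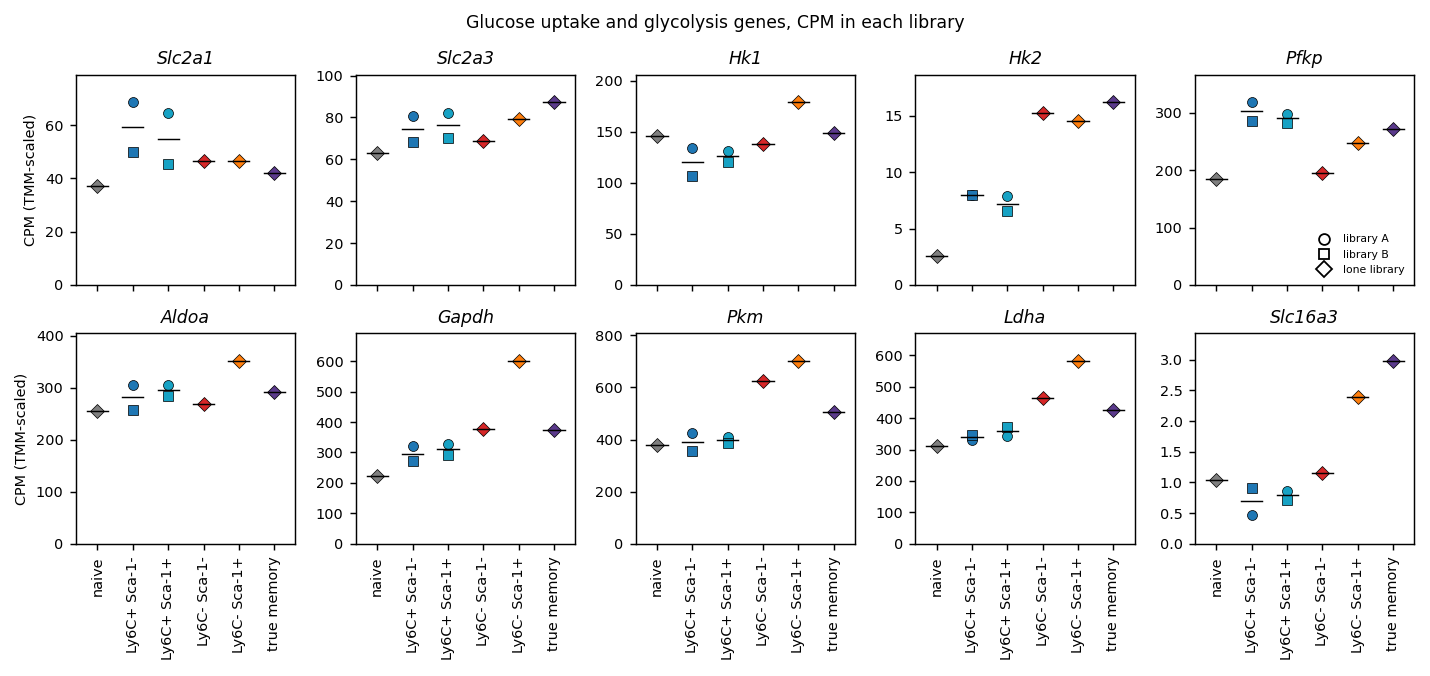
CPM (linear axis from 0, 1 panel per gene) in each library by sort group; circles are A, squares B, diamonds lone libraries, and bars the group mean. Hk1, Hk2, Gapdh, Pkm, Ldha and Slc16a3 are higher in both Ly6C- VM libraries than in every Ly6C+ VM library, and Pfkp is lower there. The share of all genes that separate in this way was not computed. Slc2a1 differs more between A and B than between the Sca-1 groups.

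Both glucose transporter genes were lowest in naive cells. Slc2a1 (GLUT1, Gene ID 20525, chromosome 4, 119108745 to 119137330) was at 37.2 CPM in naive cells, 68.8 and 49.9 CPM in Ly6C+ Sca-1- A and B, 64.6 and 45.4 CPM in Ly6C+ Sca-1+ A and B, 46.5 CPM in Ly6C- Sca-1-, 46.6 CPM in Ly6C- Sca-1+ and 42.2 CPM in true memory cells. All 4 Ly6C+ VM libraries lay above the naive library, and its highest value was 1.85 times its lowest. The A libraries exceeded the B libraries by log2 differences of 0.46 and 0.51, more than any step between neighbours when the 6 groups were ordered by level. Slc2a3 (GLUT3, Gene ID 20527, chromosome 6, 122727809 to 122802363) ran from 62.8 CPM in naive to 87.4 CPM in true memory cells. Its VM libraries lay between these, at 68.2 to 82.0 CPM, and no step between neighbouring groups exceeded the wider A to B gap of 0.25. Slc2a1 took 32.5% of the counts of the pair in true memory cells, the lowest share, and 46.0% in Ly6C+ Sca-1- A, the highest. Such shares of counts are not corrected for gene length, so they are read across libraries and not as molar amounts. Neither transporter gene passed the threshold in the tested comparisons below with all libraries. Without Ly6C+ Sca-1- B, Slc2a1 passed as higher in Ly6C+ VM against Ly6C- VM, naive and true memory cells, and without Ly6C+ Sca-1- A against naive.

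Of the hexokinases, Hk1 spanned 1.68-fold over the 8 libraries and Hk2 6.27-fold. Hk1 (Gene ID 15275, chromosome 10, 62268855 to 62379920), the housekeeping isozyme, was at 146 CPM in naive cells, 135 and 107 CPM in Ly6C+ Sca-1- A and B, 132 and 120 CPM in Ly6C+ Sca-1+ A and B, 138 CPM in Ly6C- Sca-1-, 179 CPM in Ly6C- Sca-1+ and 149 CPM in true memory cells. Hk2 (Gene ID 15277, chromosome 6, 82725025 to 82774454), the inducible isozyme, was at 2.59 CPM in naive cells, 7.99 and 8.03 CPM in Ly6C+ Sca-1- A and B, 7.87 and 6.56 CPM in Ly6C+ Sca-1+ A and B, 15.3 CPM in Ly6C- Sca-1-, 14.6 CPM in Ly6C- Sca-1+ and 16.2 CPM in true memory cells. Hk2 thus fell on 3 levels that did not overlap: naive lowest, Ly6C+ VM between, and Ly6C- VM with true memory highest. Its share of hexokinase counts (Hk1, Hk2 and Hk3) was 1.72% in naive cells, 5.04% to 6.92% in Ly6C+ VM, 9.80% in Ly6C- Sca-1-, 7.37% in Ly6C- Sca-1+ and 8.60% in true memory cells. Hk3, another hexokinase and a gene singled out after its values were seen, made up 12.3% of those counts in true memory cells against 0.940% to 2.52% in the other libraries. The true memory library also held the highest summed dendritic cell and MHC class II markers, at 5186 CPM against 46.2 to 349 CPM elsewhere, and their part in the Hk3 level was not tested.

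Like Slc2a1, Pfkp (Gene ID 56421, chromosome 13, 6579874 to 6649060), the platelet-type phosphofructokinase, had its highest group means in the Ly6C+ VM groups. It was at 185 CPM in naive cells, 319 and 286 CPM in Ly6C+ Sca-1- A and B, 299 and 283 CPM in Ly6C+ Sca-1+ A and B, 194 CPM in Ly6C- Sca-1-, 247 CPM in Ly6C- Sca-1+ and 272 CPM in true memory cells. All 4 Ly6C+ VM libraries lay above every other library. The step from Ly6C+ Sca-1+ VM down to true memory, of 0.09 on the log2 scale, was within the wider A to B gap of 0.16. Ly6C+ VM against true memory was at 0.12 ± 0.11 (SE of the edgeR fit) for Pfkp and did not pass the threshold. Pfkp took 73.4% of phosphofructokinase counts (Pfkp, Pfkl and Pfkm) in naive cells, 83.4% to 84.3% in Ly6C+ VM, 76.8% in Ly6C- Sca-1-, 78.4% in Ly6C- Sca-1+ and 81.1% in true memory cells. Deposited TPM of Pfkp differed more between libraries than CPM did, at 42.5 in naive and 96.1 in true memory cells.

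In the lower pathway, Aldoa, Gapdh, Pkm and Ldha were each highest in Ly6C- Sca-1+ VM, with Aldoa spanning the least, 1.37-fold. Aldoa (aldolase A, Gene ID 11674, chromosome 7, 126795234 to 126800994) ran from 256 CPM in naive cells to 352 CPM in Ly6C- Sca-1+ VM, with the Ly6C+ libraries at 257 to 306 CPM around the Ly6C- Sca-1- value of 269 CPM. Gapdh (Gene ID 14433, chromosome 6, 125161852 to 125166467), which makes NADH and in T cells also binds mRNA, was at 223 CPM in naive cells, 321 and 272 CPM in Ly6C+ Sca-1- A and B, 329 and 292 CPM in Ly6C+ Sca-1+ A and B, 378 CPM in Ly6C- Sca-1-, 601 CPM in Ly6C- Sca-1+ and 372 CPM in true memory cells. Ly6C- Sca-1+ VM stood apart from the other libraries, and naive cells were the lowest. Pkm (pyruvate kinase, Gene ID 18746, chromosome 9, 59656576 to 59679372) was at 380 CPM in naive cells, 423 and 358 CPM in Ly6C+ Sca-1- A and B, 411 and 387 CPM in Ly6C+ Sca-1+ A and B, 624 CPM in Ly6C- Sca-1-, 702 CPM in Ly6C- Sca-1+ and 504 CPM in true memory cells. Ly6C+ VM and naive libraries overlapped for Pkm, and the other 3 libraries lay above them. The table gives 1 value per gene, so the M1 and M2 splice forms of Pkm were not separated.

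Ldha (lactate dehydrogenase A, Gene ID 16828, chromosome 7, 46842274 to 46855627) was at 310 CPM in naive cells, 332 and 347 CPM in Ly6C+ Sca-1- A and B, 343 and 373 CPM in Ly6C+ Sca-1+ A and B, 464 CPM in Ly6C- Sca-1-, 583 CPM in Ly6C- Sca-1+ and 427 CPM in true memory cells. The Ly6C- libraries were again the highest and naive cells the lowest. Its partner Ldhb took 2.92% of the counts of the pair in naive cells, 0.586% to 0.762% in Ly6C+ VM, 1.99% in Ly6C- Sca-1-, 1.09% in Ly6C- Sca-1+ and 1.36% in true memory cells. Slc16a3 (MCT4, Gene ID 80879, chromosome 11, 120948484 to 120959000) was scarce, at 27 to 190 counts. It was at 1.05 CPM in naive cells, 0.468 and 0.912 CPM in Ly6C+ Sca-1- A and B, 0.867 and 0.720 CPM in Ly6C+ Sca-1+ A and B, 1.16 CPM in Ly6C- Sca-1-, 2.40 CPM in Ly6C- Sca-1+ and 2.98 CPM in true memory cells. The Ly6C+ libraries were the lowest, but their A to B gap of -0.91 on the log2 scale in the Sca-1- group left only the step from Ly6C- Sca-1+ down to Ly6C- Sca-1- VM, of 1.03, beyond it.

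**Figure D2:**
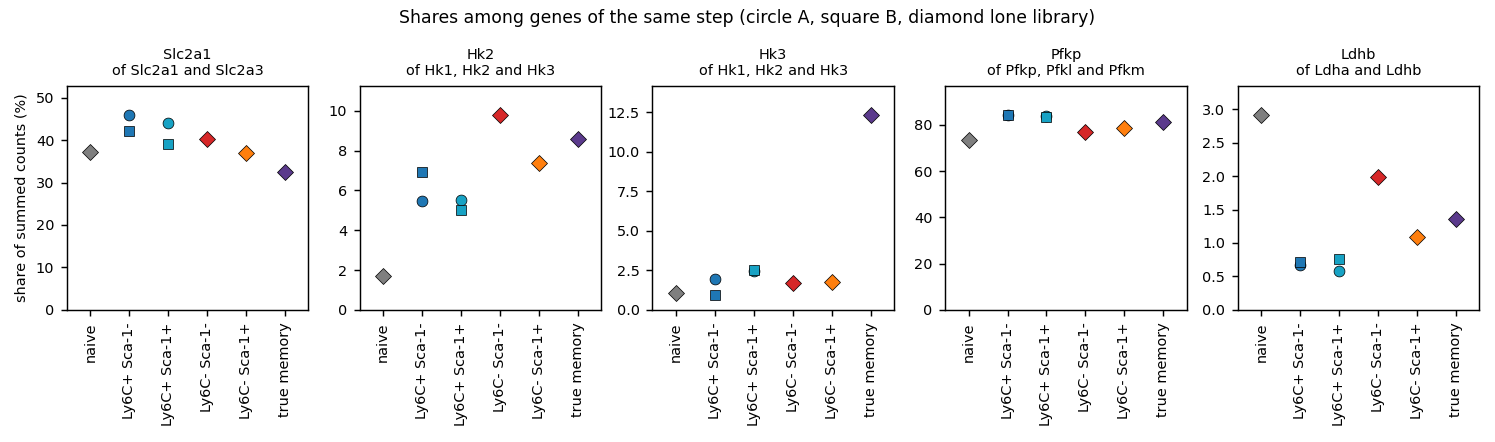
Share (%) of the summed counts of the genes of one step held by Slc2a1, Hk2, Hk3, Pfkp and Ldhb in each library, on linear axes from 0. Ldhb is below 1% in the Ly6C+ VM libraries and at 2.92% in naive cells, and Hk3 reaches 12.3% in the true memory library.

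Some of these counts share sequence with other genes. Gapdh, Ldha, Aldoa and Pkm have many processed pseudogenes in mouse, and how the counting divided such reads is not stated, so their levels are uncertain to that extent. Gm4482, a pseudogene on the same strand within Slc2a3, had at most 213 counts. Pitrm1 overlaps Pfkp and Iffo1 overlaps Gapdh on the opposite strand, with up to 4614 and 3547 counts. The kit marks strand, and whether the counting used it is not given in the sources used here.

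Ly6C+ VM cells (4 libraries) had less Hk2, Gapdh, Pkm and Ldha RNA than Ly6C- VM cells (2 libraries), and more Pfkp. Hk2 was lower in Ly6C+ VM by a log2 fold change of -0.97 ± 0.14 (SE of the edgeR fit, as throughout), Pkm by -0.75 ± 0.10, Gapdh by -0.65 ± 0.10 and Ldha by -0.58 ± 0.08, and Pfkp was higher at 0.44 ± 0.09. By edgeR's quasi-likelihood test with Benjamini-Hochberg adjustment over 15112 genes, adjusted p was 0.0064 for Hk2, 0.0050 for Pkm, 0.0094 for Gapdh, 0.0066 for Ldha and 0.020 for Pfkp. Thus 4 of 10 genes were lower and 1 higher, where 12.6% of all genes tested were lower and 8.88% higher. The median over the 10 genes was -0.46, and over all genes 0.00. The other 5 did not pass: Slc16a3 at -1.18 ± 0.33 (edgeR adjusted p = 0.053), Hk1 at -0.35 ± 0.11 (edgeR adjusted p = 0.075), Slc2a1 at 0.30 ± 0.19, Aldoa at -0.09 ± 0.10 and Slc2a3 at 0.03 ± 0.11.

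Hk2 and Pkm passed under every alternative setting. Leaving out a Ly6C- library also took the Ly6C+ libraries of the same Sca-1 type out of this comparison. Without Ly6C- Sca-1+, Ly6C+ Sca-1- (2 libraries) was set against Ly6C- Sca-1- (1 library). Gapdh was then at -0.35 and Ldha at -0.45, and neither passed the threshold. Without Ly6C- Sca-1-, Ly6C+ Sca-1+ (2 libraries) was set against Ly6C- Sca-1+ (1 library), and Pfkp was at 0.25 and did not pass. Pfkp also missed the threshold without Ly6C+ Sca-1+ A or B. Without Ly6C+ Sca-1- B, 8 of the 10 passed, among 4120 of all genes. In the authors' deposited table of Ly6C- against Ly6C+ VM, 7 of the 10 genes had an adjusted p under 0.05: these 5 with Hk1 and Slc16a3, where 20.8% of all genes in that table did.

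**Figure D3:**
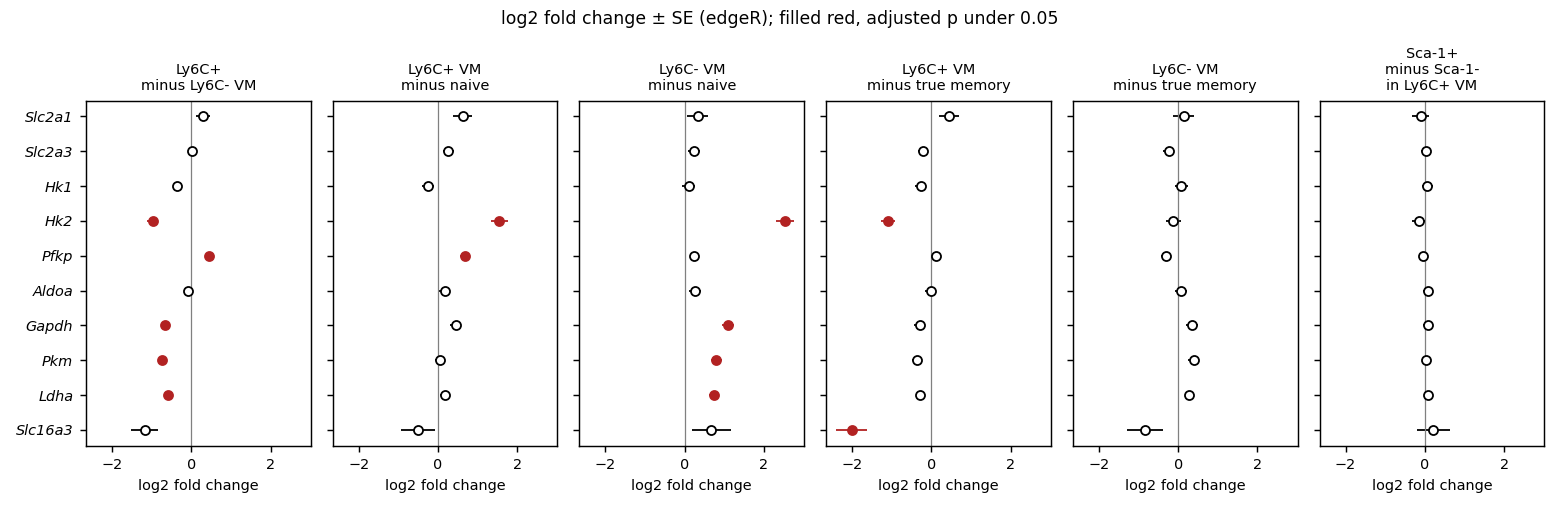
Log2 fold change (points, x axis) with SE (bars) of each gene in 6 comparisons from 1 edgeR fit; filled red points have an adjusted p under 0.05. Hk2 passes in 4 of the 6 panels, and no gene passes for Ly6C- VM against true memory or for Sca-1 within Ly6C+ VM.

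Against the naive library, Hk2 was higher in both kinds of VM cell. The Ly6C+ and Ly6C- contrasts share that library, and the naive and true memory contrasts share the VM libraries, so they are not independent. In Ly6C+ VM, Hk2 rose by 1.55 ± 0.21 (edgeR adjusted p = 0.013) and Pfkp by 0.68 ± 0.12 (edgeR adjusted p = 0.028). That is 2 of 10 genes higher and 0 lower, where 3.54% of all genes were higher and 2.13% lower. Slc2a1 at 0.62 ± 0.25 and Gapdh at 0.45 ± 0.14 did not pass (edgeR adjusted p = 0.25 and 0.15), and Pkm and Ldha were at 0.05 ± 0.13 and 0.17 ± 0.11. Pfkp missed the threshold without Ly6C+ Sca-1+ A or B (edgeR adjusted p = 0.075 and 0.060).

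In Ly6C- VM, Hk2 was higher than in naive cells by 2.52 ± 0.23 (edgeR adjusted p = 0.0029), Gapdh by 1.10 ± 0.16 (0.014), Pkm by 0.80 ± 0.15 (0.030) and Ldha by 0.75 ± 0.12 (0.021). These 4 of 10 genes were higher and 0 lower, where 5.74% of all genes were higher and 2.02% lower. Pfkp was at 0.25 ± 0.12, Aldoa at 0.26 ± 0.15, Hk1 at 0.11 ± 0.16 and Slc16a3 at 0.67 ± 0.49, none past the threshold. Without Ly6C- Sca-1+, only Hk2 passed, and Gapdh, Pkm and Ldha had edgeR adjusted p = 0.082, 0.084 and 0.091, while the number of all genes called went from 1172 to 550.

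Against the true memory library, Ly6C+ VM cells had less Hk2 (-1.10 ± 0.17, edgeR adjusted p = 0.011) and less Slc16a3 (-2.01 ± 0.39, edgeR adjusted p = 0.024). These were 2 of 10 genes lower and 0 higher, where 8.60% of all genes were lower and 1.95% higher. Pkm at -0.35 ± 0.13, Gapdh at -0.29 ± 0.13 and Ldha at -0.29 ± 0.11 did not pass. Without Ly6C+ Sca-1- A, 4 of the 10 genes passed, while the number of all genes called went from 1594 to 2538. The true memory library also held the most RNA of some markers of other cells. The dendritic cell receptor Clec9a was at 74.4 CPM against 0.178 to 2.67 CPM elsewhere, and NK cell markers summed to 55.7 against 1.9 to 10.5 CPM. Monocyte and macrophage, CD4 T cell, erythroid and B cell markers each summed higher in another library. The part of such RNA in these values was not tested. For Ly6C- VM against true memory 0 of 10 genes passed in edgeR, DESeq2 or limma-voom, with 2 at an unadjusted p under 0.05 in edgeR (Pkm at 0.39 ± 0.14 and Pfkp at -0.31 ± 0.12), where 0.0662% of all genes were higher and 2.24% lower. Hk2 differed there by -0.12 ± 0.20.

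Sca-1 made no detectable difference to the 10 genes within Ly6C+ VM cells (2 against 2 libraries). The log2 fold changes ran from -0.15 ± 0.17 for Hk2 to 0.21 ± 0.41 for Slc16a3. In edgeR, DESeq2 and limma-voom 0 of 10 genes passed, with 0 at an unadjusted p under 0.05 in edgeR, where 0.00662% of all genes passed in either direction. For the abundant Gapdh, Pkm and Ldha the values were 0.07 ± 0.12, 0.03 ± 0.12 and 0.08 ± 0.10. The authors' deposited table gave an adjusted p of 1 for each of the 10 genes in that comparison, where 1.61% of all genes in that table had one under 0.05. Markers of other cells divided these libraries: monocyte and macrophage markers summed to 34.0 and 13.5 CPM in Sca-1- A and B against 116 and 158 CPM in Sca-1+ A and B, with 9 of 9 positive at a median log2 difference of 3.07. Of the erythroid markers 5 of 5 were positive, at a median of 1.84, and of the cell cycle genes 25 of 25, at a median of 0.94. In each of these lists 0 passed the threshold in edgeR, and their part in the values of the 10 genes was not tested.

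Within Ly6C- VM cells (1 library against 1, no replicate check and no test), 9 of the 10 genes were higher in Sca-1+ cells, with a median log2 difference of 0.34, against 0.03 over all genes. Of all genes, 53.8% were higher. Slc16a3 differed by 1.03, Gapdh by 0.67, Aldoa by 0.39, Hk1 by 0.38, Pfkp by 0.35 and Ldha by 0.33, and Hk2 by -0.07. A rise of 2-fold or more was seen for 2.28% of all genes and a fall of that size for 3.77%, and of the 10 genes Slc16a3 alone passed that size. The signed difference, Sca-1+ minus Sca-1-, was the more positive in Ly6C- VM for all 10 genes, by a median of 0.28 (0.02 over all genes), with 0.60 ± 0.21 for Gapdh and 0.40 ± 0.17 for Pfkp. For Hk2 and Slc2a1 it was negative in Ly6C+ VM (-0.15 and -0.11) and nearer 0 in Ly6C- VM. In edgeR's test of that difference 0 of 10 genes passed, with 1 (Gapdh) at an unadjusted p under 0.05, and 0% of all genes passed; DESeq2 and limma-voom also called 0 of the 10.

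True memory exceeded naive cells for all 10 genes (1 library against 1, no test), with a median log2 difference of 0.47, against -0.01 over all genes. Of all genes, 49.4% were higher in true memory. Hk2 differed by 2.63, Slc16a3 by 1.48, Gapdh by 0.74, Pfkp by 0.56, Slc2a3 by 0.48, Ldha by 0.46 and Pkm by 0.41. Hk1, at 0.03, was nearly equal in these libraries. A rise of 2-fold or more was seen for 10.3% of all genes and a fall of that size for 1.99%, and of the 10 genes Hk2 and Slc16a3 passed that size. Dendritic cell and MHC class II markers summed to 5186 CPM in true memory and 127 CPM in naive cells. NK cell markers summed to 55.7 and 1.9 CPM, and B cell markers to 26.1 and 27.0 CPM, in the same order. The part of such RNA in these differences was not tested.

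Over the 8 libraries, Gapdh, Pkm and Ldha ran most alike. Pearson's r of log2 CPM was 0.93 for Pkm and Ldha, 0.93 for Gapdh and Ldha and 0.89 for Gapdh and Pkm. Aldoa ran with Gapdh at 0.83, but with Pkm at 0.58 and Ldha at 0.59. Hk2 ran with Gapdh at 0.80 and Ldha at 0.78, and Hk1 with Pkm at 0.76. Pfkp was most like Slc2a1 (0.72) and least like Hk1 (-0.36). These are descriptions, since the libraries fall into a few sort groups. Among 10029 other genes with a mean of at least 5 CPM, those most like the mean standardised level of the 10 were Vim (r = 0.98), which encodes the intermediate filament vimentin, and Htatip2, Ccdc124, Prr13 and Atp10a (each 0.97). Vim was at 257 CPM in naive cells, 308 to 384 CPM in Ly6C+ VM, 379 CPM in Ly6C- Sca-1-, 681 CPM in Ly6C- Sca-1+ and 445 CPM in true memory cells.

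Other enzymes of the pathway were read from a list of 18 genes, of which 13 were tested. In Ly6C+ against Ly6C- VM, 6 of the 13 were lower and 1 was higher, where 12.6% of all genes were lower and 8.88% higher. Ldhb, which favours lactate use, was lower at -1.69 ± 0.20, and the brain-type aldolase Aldoc at -1.47 ± 0.27. Aldoc was scarce, at 0.535 to 0.745 CPM in Ly6C+ and 1.49 to 1.85 CPM in Ly6C- VM. Triosephosphate isomerase Tpi1 was lower at -0.64 ± 0.09, and phosphoglycerate kinase Pgk1 at -0.40 ± 0.07 (edgeR adjusted p = 0.0036, 0.015, 0.0057 and 0.015 in the order named). Ly6C- VM against naive gave 3 higher and 0 lower: the mutase Pgam1 at 1.16 ± 0.11, Tpi1 at 0.99 ± 0.13 and Pgk1 at 0.83 ± 0.11. Of all genes, 5.74% were higher and 2.02% lower there. Ly6C+ VM against naive gave 1 higher, Pgam1 at 0.86 ± 0.10, and 1 lower, Ldhb at -1.95 ± 0.24. In that comparison 3.54% of all genes were higher and 2.13% lower. Against true memory, 5 of the 13 were lower in Ly6C+ VM and 1, Hk3, in Ly6C- VM. Over all genes, 8.60% were lower in Ly6C+ VM and 2.24% in Ly6C- VM.

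For the lists that follow, 12.6% of all genes were lower and 8.88% higher in Ly6C+ than in Ly6C- VM. Of 6 further transporters tested, Slc16a6, a monocarboxylate transporter family member, was higher in Ly6C+ than in Ly6C- VM at 0.84 ± 0.09 (edgeR adjusted p = 0.0023), and 0 were lower. Of 5 enzymes that set fructose-2,6-bisphosphate, the activator of phosphofructokinase, 3 were higher in Ly6C+ VM and 0 lower. These were the bifunctional enzymes Pfkfb2 (0.56 ± 0.09) and Pfkfb4 (0.84 ± 0.18) and the phosphatase Tigar (0.57 ± 0.10), which lowers that activator (edgeR adjusted p = 0.0086, 0.024 and 0.014). They moved the same way as Pfkp and opposite to Hk2, Gapdh, Pkm and Ldha. Of 8 pentose phosphate genes, Pgd (-0.54 ± 0.07), Taldo1 (-0.43 ± 0.08) and Tkt (-0.50 ± 0.11) were lower in Ly6C+ VM and 0 were higher. Of 12 genes for pyruvate entry into mitochondria, Pdk3, a kinase that inhibits pyruvate dehydrogenase, was lower (-0.56 ± 0.13) and 0 were higher. That 1 gene is not more than the share over all genes.

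Among 17 regulators of glycolysis, 6 were lower and 1 higher in Ly6C+ than in Ly6C- VM, where 12.6% of all genes were lower and 8.88% higher. Irf4, a TCR-induced factor needed for glycolysis in effector CD8 T cells, was at 8.98 CPM in naive cells, 9.63 to 22.5 CPM in Ly6C+ VM, 48.8 and 78.1 CPM in Ly6C- VM and 44.7 CPM in true memory cells. It was lower in Ly6C+ VM by -1.83 ± 0.23 (edgeR adjusted p = 0.0045). Bcl6, a repressor of glycolysis genes in T cells, was lower at -0.85 ± 0.12, Hif1a at -0.44 ± 0.08 and the kinase Akt1 at -0.45 ± 0.08. Txnip, which restrains glucose uptake, was the 1 higher gene, at 0.50 ± 0.09. Myc was at 0.33 ± 0.11 and did not pass (edgeR adjusted p = 0.080). Of 10 hypoxia-response genes outside glycolysis, Ndrg1 (-1.07 ± 0.10) and Mxi1 (-0.57 ± 0.13) were lower and 0 higher.

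Cell cycle genes and several markers of other cells were also lower in Ly6C+ than in Ly6C- VM. Across all genes tested, 12.6% were lower and 8.88% higher in that comparison. The 25 cell cycle genes summed to 654 CPM in naive cells, 794 to 1120 CPM in Ly6C+ VM, 2159 CPM in Ly6C- Sca-1-, 3337 CPM in Ly6C- Sca-1+ and 2486 CPM in true memory cells, and 25 of 25 were lower in Ly6C+ than in Ly6C- VM. CD4 T cell markers (3 of 4 in the table) summed to 1.5 CPM in naive cells, 3.7 to 9.1 CPM in Ly6C+, 13.8 and 55.7 CPM in Ly6C- and 29.4 CPM in true memory cells, and 3 of 3 were lower in Ly6C+ VM. Dendritic cell and MHC class II markers (10 of 10) summed to 46.2 to 121 CPM in Ly6C+ and 240 to 349 CPM in Ly6C- VM, with 7 lower and 1 higher in Ly6C+ VM. These markers were higher in naive cells, at 127 CPM, than in every Ly6C+ VM library. B cell markers (6 of 6) summed to 14.7 to 17.1 against 24.5 to 34.0 CPM, with 3 lower, and naive cells were at 27.0 CPM. Plasma cell markers (3 of 5) summed to 0.6 to 5.8 against 6.8 to 26.0 CPM, with 3 of 3 lower. Erythroid markers (5 of 8) summed to 3.5 to 19.8 against 13.0 to 35.4 CPM, with 4 of 5 lower. NK cell markers (2 of 4) summed to 5.5 to 9.7 against 9.9 to 10.5 CPM, with 1 lower. Monocyte and macrophage markers (9 of 9) overlapped, at 13.5 to 158 against 62.8 to 111 CPM, with 1 lower, and within Ly6C+ VM they were higher in both Sca-1+ libraries than in both Sca-1- libraries. The 1 platelet marker in the table did not pass, and 0 of 7 neutrophil markers were in the table. The 8 CD8 T cell markers summed to 4276 to 5118 CPM over all libraries, with 0 past the threshold between Ly6C+ and Ly6C- VM. The part of these markers, and of cell cycling, in the glycolysis results was not tested.

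**Figure D4:**
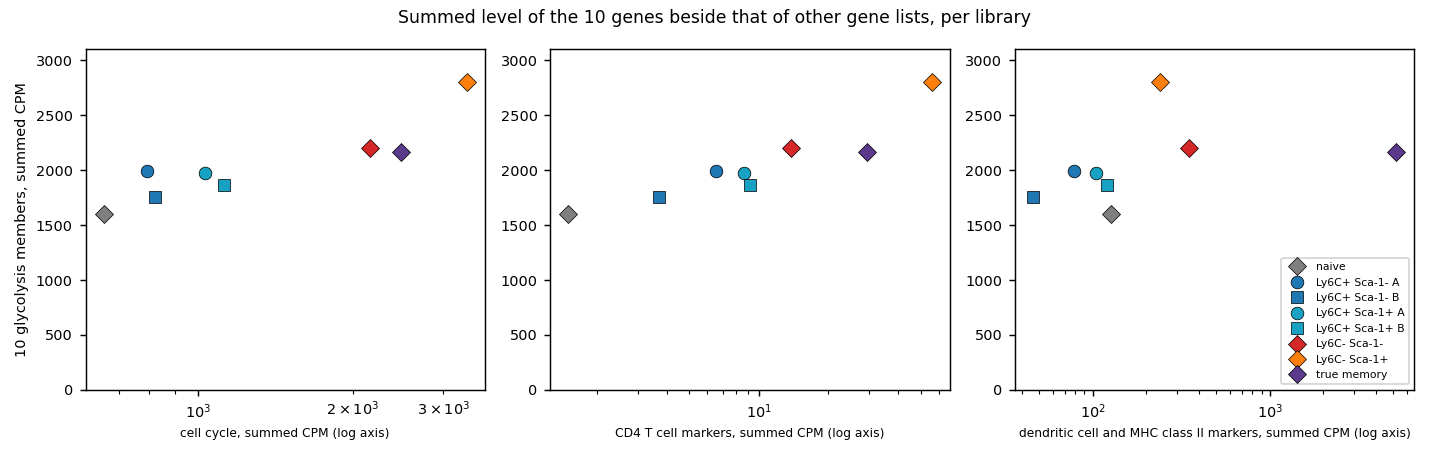
Summed CPM of the 10 genes (y axis, linear from 0) against the summed CPM of 3 lists, cell cycle genes, CD4 T cell markers and markers of dendritic cells with MHC class II (x axes, log scale), 1 point per library. Ly6C- Sca-1+ VM is highest in the 10 genes, in cell cycle (3337 CPM) and in CD4 T cell markers (55.7 CPM), and true memory is highest in dendritic cell and MHC class II markers (5186 CPM).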

How the data were processed

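Per the labels, RNA of sorted CD8 T cells was made into stranded mRNA libraries, and paired-end reads were trimmed with Trimmomatic 0.38 after a FastQC 0.11.7 check. The submitters' processing notes list R 3.6.0, edgeR and mm10; aligner and counter: not given in the sources used here. Groups follow the titles, since the cell type label names virtual memory for all 8 libraries. The deposited raw counts per gene were used for every test and for shares of counts. TPM values, computed by the authors before deposition, were used for the 4 lone libraries only, because those columns match 1 sample each, although all 8 libraries had been planned. Another 24 deposited columns of per-sample values were left unused. The authors' deposited table also gave signed fold changes, a score never between -1 and 1, and p-values, quoted only as theirs. No count in the table was under 1, so genes with a 0 in any library had been dropped.

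All 8 libraries entered 1 edgeR 4.0.16 quasi-likelihood fit (R 4.3.3) with 1 coefficient per group, TMM factors and filterByExpr, which kept 15112 genes and all 10 members. The fit had 2 residual and 4.14 prior degrees of freedom. The threshold was an adjusted p (Benjamini-Hochberg) of 0.05, and SE was derived from each fold change and its F value. Comparisons of 1 library with 1 used log2 CPM with a prior count of 2. Alternatives were RLE factors, library totals, DESeq2 1.42.0, limma-voom 3.58.1, no filter, a 1 CPM filter, a replicate block and leaving out libraries. Scripts were tested on simulated data. Beside the 10 members, the text names up to 4 genes per list with the smallest p in Ly6C+ against Ly6C- VM, Hif1a, Myc, Irf4 and Txnip, and the 5 genes most like the members; Hk3 and Pgam1 were named after their values were seen. Members and lists were chosen with earlier results of these data known. Gene coordinates and promoters are from RefSeq on GRCm38.p6, the assembly of mm10.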

Additional observations from a re-analysis of the deposited data

How the results depend on the processing

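Of 823 alternative values for the 70 tested values of the 10 genes, 770 kept direction and side of the threshold, 10 lost a call, 15 gained one and 28 changed sign. Of 13 calls, 7 were lost under some alternative, each when a library was left out. Leaving out libraries moved the number of the 10 genes called from 5 to between 3 and 8 for Ly6C+ against Ly6C- VM, from 2 to between 1 and 4 for Ly6C+ VM against naive, from 4 to between 1 and 4 for Ly6C- VM against naive and from 2 to between 2 and 4 for Ly6C+ VM against true memory. The number of all genes called went from 3240 to between 1126 and 4381, from 857 to between 710 and 1760, from 1172 to between 550 and 2690 and from 1594 to between 1253 and 2538 in the same order. Requiring 1 CPM in every library left 1 call in the last, because Slc16a3 was no longer tested. Where a Ly6C- library was left out, the Ly6C+ against Ly6C- comparison also lost the Ly6C+ libraries of that Sca-1 type. The Sca-1, Ly6C- against true memory and difference-of-differences counts were 0 in every setting. DESeq2 called 223 genes of all for Sca-1 within Ly6C+ VM, against 1 in edgeR.

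Every change of sign concerned a value at or under 0.21 in size that did not pass before or after, and the cause was not tested. With library totals only, Slc2a3 in Ly6C+ against Ly6C- VM was at -0.0220. The others came from leaving out libraries. For Sca-1 within Ly6C+ VM, Slc2a1 then ran from -0.39 to 0.14, Slc2a3 from -0.086 to 0.16, Hk1 from -0.096 to 0.24, Pfkp from -0.13 to 0.022, Aldoa from -0.053 to 0.20, Gapdh from -0.047 to 0.19, Pkm from -0.085 to 0.16 and Slc16a3 from -0.20 to 0.76. For Ly6C+ against Ly6C- VM, Slc2a3 ran from -0.045 to 0.11 and Aldoa from -0.24 to 0.067. Against naive, Pkm in Ly6C+ VM ran from -0.0089 to 0.11 and Hk1 in Ly6C- VM from -0.083 to 0.28. Against true memory, Aldoa in Ly6C+ VM ran from -0.085 to 0.040, and in Ly6C- VM Hk1 ran from -0.11 to 0.28 and Aldoa from -0.12 to 0.28. For the difference of Sca-1 differences, Slc2a1 ran from -0.14 to 0.39 and Hk2 from -0.049 to 0.21.

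A replicate block by column suffix, fitted for Sca-1 within Ly6C+ VM, called 0 of the 10 genes and 467 genes of all. The A minus B differences of the groups correlated at r = 0.354 over 15112 genes, but with 2 pairs and no label tying the suffix to a shared source, the samples share only a mark. A prior count of 0.5 left the medians of the untested comparisons at 0.47 and 0.34. Slc16a3 rested on 27 to 190 counts, the fewest of the 10. With 4 lone libraries, a shift in 1 of them cannot be told apart from its group.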
